A study of Mus musculus with 12 samples.

Results

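Collagen chain genes encode the polypeptides that wind into the helices of collagen, the main structural protein of extracellular matrix. They were taken here as all genes of the mouse array whose symbol reads Col, a number, a, a number. Of 45101 probe sets, 34958 were annotated to 1 gene, 18194 genes in all. Among these, 82 probe sets belonged to 42 collagen genes, 27 of them with more than 1 probe set and 15 with 1. The RefSeq gene table lists 44 such genes, and Col28a1 and Col6a6 had no single-gene probe set.

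The series profiled mouse otic vesicles, the embryonic rudiment of the inner ear, and 2B1, a cell line from the otic vesicle, on 12 arrays in 6 groups of 2. Vesicles came from wild-type and Dlx5-null embryos at embryonic day 10 (E10) and at E10.5; Dlx5 is a homeobox transcription factor of the dorsal otic vesicle. Each vesicle array held RNA of a separate pool of 4 to 8 vesicles, cleared of attached mesenchyme with dispase at 1 mg/ml. The 2B1 arrays came from independent cultures grown at 32 °C with gamma-interferon, transiently transfected with Dlx5 plus GFP or with a GFP-only empty vector, then differentiated for 4 days at 37 °C without gamma-interferon. All 2B1 cultures therefore carried GFP and had been differentiated, and the share of cells transfected was not given in the sources used here. The null allele and the genetic background of the embryos were not given either.

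Every collagen molecule is built from 3 chains, and the chain type decides the structure that forms. Fibrillar collagens (types I, II, III, V, XI, XXIV and XXVII) make the banded fibrils of connective tissue and cartilage; the fibril-associated collagens, or FACITs (types IX, XII, XIV, XVI and relatives), sit on the surface of those fibrils. Type IV chains make the sheet of basement membranes, type VI chains make beaded filaments, and type XVIII, a multiplexin, lies in basement membranes. In the inner ear, types II, IX and XI are known from the cartilage capsule and the acellular membranes over the sensory organs, and loss of type IV or XI chains is a known cause of deafness.

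The upstream promoter sequences of 3 members are given because the results below turn on these genes: Col9a1 and Col9a2, whose rise between the stages held in every setting tried, and Col5a3, the member with the smallest p between the vesicle labels at E10.5. RefSeq sequences of build GRCm38.p6 were available for 33 of the 42 members. Only bases upstream of the gene's outermost annotated start are printed, 5′ to 3′ on the gene's strand, with CG dinucleotides in capitals. Col9a1 lies at chr1:24177360-24177588 on the plus strand, Col9a2 at chr4:121039316-121039565 on the plus strand and Col5a3 at chr9:20815118-20815317 on the minus strand.
Col9a1: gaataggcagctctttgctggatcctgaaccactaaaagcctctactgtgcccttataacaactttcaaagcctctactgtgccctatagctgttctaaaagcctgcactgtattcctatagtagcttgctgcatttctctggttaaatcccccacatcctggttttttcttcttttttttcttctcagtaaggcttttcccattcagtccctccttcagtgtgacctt
Col9a2: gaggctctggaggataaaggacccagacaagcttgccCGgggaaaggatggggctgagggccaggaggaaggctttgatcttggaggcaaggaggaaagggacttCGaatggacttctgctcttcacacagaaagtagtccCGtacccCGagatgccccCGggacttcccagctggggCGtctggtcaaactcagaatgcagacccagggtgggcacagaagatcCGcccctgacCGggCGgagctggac
Col5a3: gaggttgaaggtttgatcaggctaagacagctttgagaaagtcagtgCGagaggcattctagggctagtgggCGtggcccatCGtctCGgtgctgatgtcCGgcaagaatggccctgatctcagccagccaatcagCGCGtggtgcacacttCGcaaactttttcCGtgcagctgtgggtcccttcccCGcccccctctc
The Col9a1 stretch of 229 bases had 43.2% G or C and 0 CG dinucleotides. The Col9a2 stretch of 250 bases had 60.4% G or C and 9 CG dinucleotides, and the Col5a3 stretch of 200 bases had 58% and 10. The 2 type IX genes that rose together thus had unlike base composition upstream of their starts. Over windows of 300 bases, from 250 before the listed start to 50 after it, the median G or C content was 60.0% for the 33 members and 52.67% for all genes listed. The homeodomain core TAATT, on either strand, occurred in 3 of 33 member windows (9.09%; Col10a1, Col11a2 and Col17a1) and in 27.3% of all windows. The SOX core AACAAT occurred in 1 member window, that of Col3a1, and in 10.9% of all windows. TATAAA occurred in 5 of 33 member windows (15.2%) against 14.2% of all, and CCAAT in 12 of 33 (36.4%) against 37.9%, 1 of them in the Col5a3 stretch above. None of the 4 motifs contains another, and these matches describe the letters only.

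Array means were close to 6.1 in the vesicles and 5.76 to 5.82 in 2B1, with top values of 14.9 and 15.4, so the 2 sets appear to have been normalized apart and no test was made between them. The spread over probe sets (SD) was lower in replicate 1 of both E10 groups (2.32 and 2.33) than in the other vesicle arrays (2.38 to 2.47), and lower in empty vector replicate 1 (2.19) than in the other cultures (2.29 to 2.31). The Dlx5 probe set went against the genotype labels: wild-type arrays read 6.11 to 6.30 and the Dlx5-null ones 7.27 to 8.02. Cultures given Dlx5 read 5.14 and 4.80, and empty vector cultures 4.66 and 4.79. Where its probes lie relative to the deleted part or the transfected insert is not given in the sources used here, so the probe set checks neither, and the groups are called labelled-null and wild-type by their labels alone. The otic markers Oc90 (10.75 to 13.28) and Sox10 (11.13 to 12.32) were high in every vesicle array; in 2B1 the same Oc90 probe set read 5.67 to 6.17. The epithelial marker Epcam read 8.07 to 8.40 in vesicles and 6.68 to 7.08 in 2B1, and the mesenchyme marker Twist1 6.19 to 7.66 and 9.58 to 9.77. In bulk RNA, more cells of a type and more RNA per cell cannot be told apart.

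Vesicles and 2B1 gave unlike sets of high readings. The values that follow are log2 levels of 1 probe set in both sources, set side by side without a test because of the separate normalization. Col2a1, the chain of type II collagen of cartilage, read 13.50 to 14.02 in the 8 vesicle arrays and 5.44 to 5.91 in the 4 cultures. Col9a1 read 10.79 to 11.91 and 2.86 to 3.81. The other Col9a1 probe set, the one tested in 2B1, read 9.19 to 11.08 and 6.09 to 6.33. Col26a1, a secreted collagen with an EMI domain, read 9.96 to 12.35 and 3.19 to 3.6. Col11a1, a minor chain of cartilage fibrils, read 8.68 to 9.92 and 3.97 to 4.49. In the other direction Col1a1, a chain of type I collagen of bone and skin, read 5.73 to 7.35 in vesicles and 13.35 to 13.92 in 2B1. Its fibril partner Col5a2 read 5.65 to 6.67 and 9.38 to 9.89, and the short-chain Col8a1 read 5.38 to 5.95 and 8.40 to 8.72. Other fibril chains read in one range: Col1a2, the partner of Col1a1, 7.57 to 8.49 in vesicles and 7.79 to 8.32 in 2B1, Col3a1 6.39 to 8.57 and 7.56 to 8.72, and Col5a1 7.73 to 9.15 and 8.53 to 9.09. Col5a3 read 5.75 to 8.43 and 5.24 to 5.60. Col2a1, Col9a1 and Col11a1 thus read high in vesicles and lower in 2B1, where Col2a1 lay near the middle of all probe sets (percentile 54.03). The chains of fibrous connective tissue did not share 1 pattern. Col6a1, a chain of beaded filaments, was high in both (12.91 to 13.51 and 12.19 to 12.53), and Col4a1 read about the same in both (9.87 to 10.31 and 9.72 to 10.13).

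After the 25% of genes with the lowest means were left out, 33 of the 42 members were tested among 13645 genes in the vesicles. The 9 left out (Col4a3, Col4a4, Col6a4, Col6a5, Col8a2, Col10a1, Col17a1, Col19a1 and Col24a1) did not exceed 5.8 in any vesicle array on the probe set with the highest mean. In 2B1, 33 members were tested among 13647 genes; Col4a3, Col4a4, Col6a4 and Col19a1 entered there, and Col11a1, Col13a1, Col23a1 and Col26a1 did not.

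The first comparison asked how collagen genes changed between E10 and E10.5, over both labels. Of the 33 genes, 16 rose and 0 fell at an adjusted p under 0.05 (limma, Benjamini-Hochberg over all genes tested); over all genes 9.28% were called higher and 6.54% lower. The largest rises were in Col14a1, a FACIT of dense connective tissue, in Col9a2, and in Col5a3, a fibril-regulating type V chain. The median difference of the members was 0.46 on the log2 scale, where 1 is a 2-fold change, against 0.045 over all genes. Levels were higher at E10.5 for 30 members, and for 19 both E10.5 arrays were above both E10 arrays within each label, as in 19.2% of all genes tested (57.6% of members); 0 members were below in both labels, against 12.3% of all genes.

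**Figure D1:**
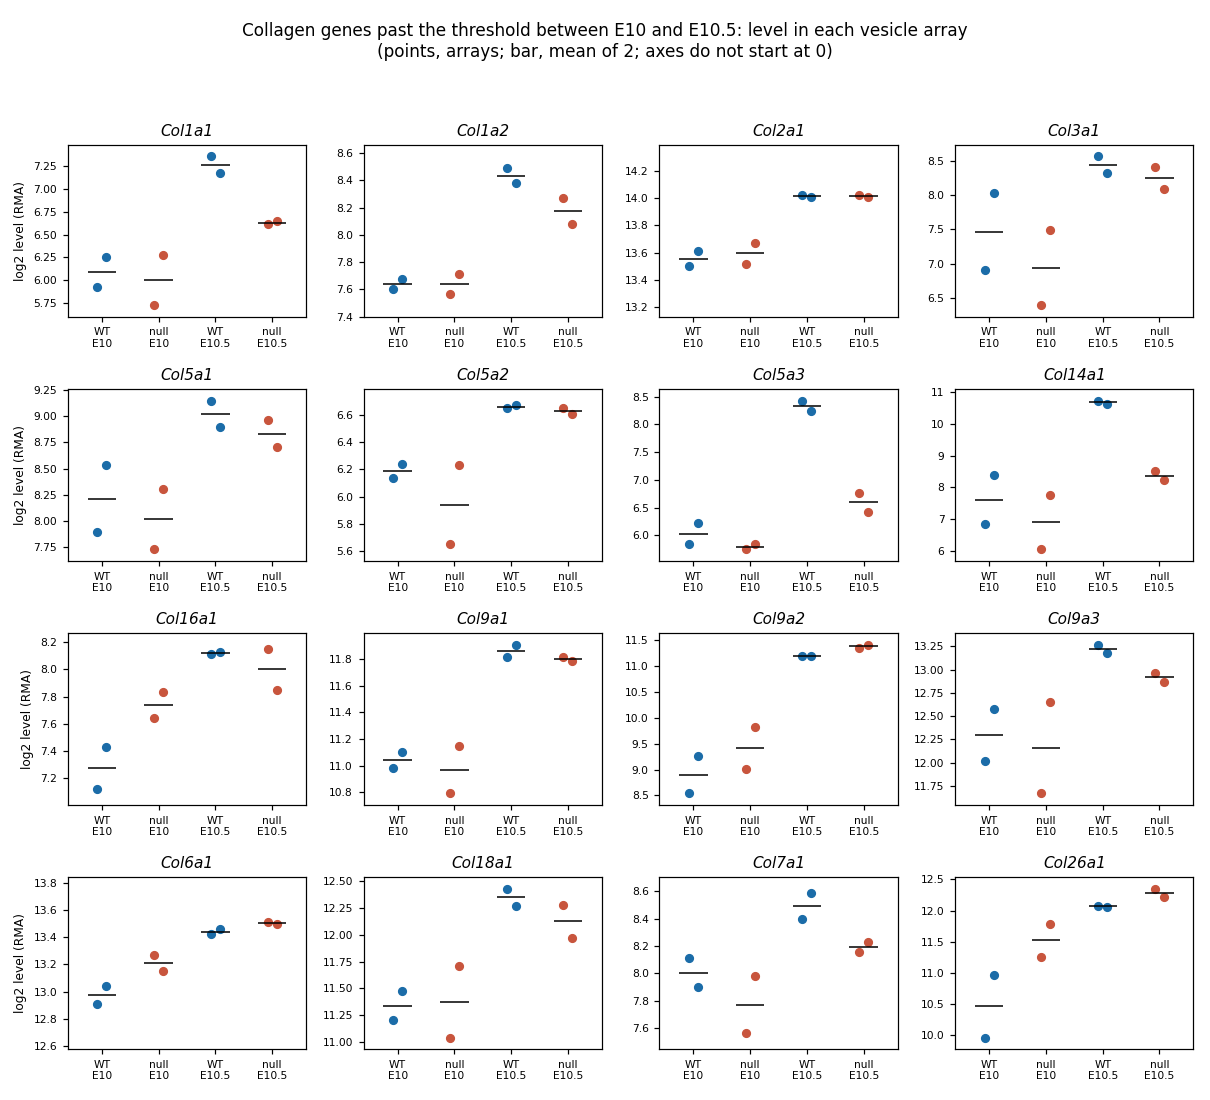
Log2 level in each of the 8 vesicle arrays for the 16 collagen genes that passed the threshold between E10 and E10.5; points are arrays, bars the mean of 2, blue wild-type and red labelled-null. Except for Col14a1, where 1 labelled-null E10.5 array (8.24) lies below the highest E10 array (8.38), all E10.5 points lie above all E10 points of the same gene, and for Col5a3 and Col14a1 the wild-type E10.5 arrays stand above the labelled-null ones (10.74 and 10.63 against 8.51 and 8.24 for Col14a1).

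Type IX collagen, the heterotrimer that decorates type II fibrils in cartilage and the tectorial membrane, rose in all of its 3 chains. Col9a2 read 8.54 and 9.27 (wild-type) and 9.01 and 9.83 (labelled-null) at E10, and 11.20, 11.20, 11.36 and 11.42 at E10.5. The lowest E10.5 array was far above the highest E10 array, and the difference was 2.13 ± 0.22 (SE; adjusted p = 0.00299). Col9a1 read 10.98, 11.10, 10.79 and 11.15 at E10 and 11.82, 11.91, 11.82 and 11.79 at E10.5, a difference of 0.83 ± 0.11 (adjusted p = 0.00505). Its second probe set differed by 1.47. Col9a3 read 12.02, 12.58, 11.67 and 12.65 at E10 and 13.27, 13.18, 12.97 and 12.87 at E10.5 (0.84 ± 0.22, adjusted p = 0.0353). Here the groups were closer, and the other Col9a3 probe sets differed by 0.20 and 0.08.

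Col14a1 had the largest difference and the largest spread. It read 6.86, 8.38, 6.05 and 7.77 at E10, 10.74 and 10.63 in wild-type at E10.5, and 8.51 and 8.24 in labelled-null at E10.5 (2.27 ± 0.49, adjusted p = 0.0209). Only the wild-type E10.5 arrays stood well clear of the highest E10 array. Its second probe set differed by 0.75, and the third, at 4.06 to 4.48 in the vesicles, by 0.005. Among the other FACITs, Col16a1 rose by 0.56 (adjusted p = 0.0462), while Col12a1, Col20a1 and Col22a1 were 0.26, 0.17 and 0.20 higher without passing the test. In all, 5 of 8 FACIT genes tested rose, with a median of 0.69.

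Among fibrillar chains 7 of 10 rose, with a class median of 0.62. Type V collagen, which sets the diameter of fibrils, rose in all of its 3 chains: Col5a3 by 1.56 ± 0.29 (adjusted p = 0.0124), Col5a1 by 0.81 (adjusted p = 0.0233) and Col5a2 by 0.58 (adjusted p = 0.0291). Col5a3 read 5.85, 6.22, 5.75 and 5.84 at E10, 8.43 and 8.25 in wild-type at E10.5 and 6.77 and 6.43 in labelled-null at E10.5. Its other probe set read between 3.48 and 4.35 and differed by -0.45. Both type I chains rose. Col1a1 read 5.93, 6.26, 5.73 and 6.28 at E10 and 7.35, 7.17, 6.61 and 6.65 at E10.5 (0.90 ± 0.17, adjusted p = 0.0141), and its second probe set differed by 0.085. Col1a2 read 7.60, 7.68, 7.57 and 7.71 at E10 and 8.49, 8.38, 8.27 and 8.08 at E10.5 (0.67 ± 0.11, adjusted p = 0.00859). Col1a2 was thus tightly grouped within each stage. Col3a1, the type III chain of elastic tissues and vessels, read 6.90, 8.03, 6.39 and 7.49 at E10 and 8.57, 8.33, 8.41 and 8.09 at E10.5 (1.15 ± 0.30, adjusted p = 0.0368).

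Col2a1 was near the top of the scale at both stages. It read 13.50, 13.61, 13.52 and 13.67 at E10 and 14.02, 14.01, 14.02 and 14.01 at E10.5, and rose by 0.44 ± 0.095 (adjusted p = 0.0207). The 4 E10.5 values lay within 0.01 of each other, near the arrays' maximum of 14.9. The type XI chains, which co-assemble with type II, did not pass: Col11a1 differed by -0.17 ± 0.19 (adjusted p = 0.549) and Col11a2 by 0.08. Col11a1 read 9.41, 9.92, 8.84 and 9.51 at E10 and 9.63, 9.61, 9.07 and 8.68 at E10.5, and the stages overlapped. Sox9, Sox5 and Sox6, the transcription factors known to activate Col2a1, Col9a1 and Col11a2 in cartilage, gave 0 calls among 3 genes, and differed by 0.16, 0.11 and -0.14.

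None of the 4 type IV genes tested passed between the stages, and their median was 0.09. Col4a1 and Col4a2, the head-to-head gene pair of every basement membrane, differed by 0.14 ± 0.11 (adjusted p = 0.421) and 0.57 ± 0.17 (adjusted p = 0.0570). Col4a1 read 9.87, 10.21, 10.19 and 10.23 at E10 and 10.26, 10.31, 10.19 and 10.30 at E10.5, and the stages overlapped. Col4a2 read 8.70, 9.19, 8.55 and 9.20 at E10 and 9.51, 9.45, 9.61 and 9.35 at E10.5, and they did not. Col18a1, whose product carries endostatin at its end and lies in basement membranes, rose by 0.88 ± 0.17 (adjusted p = 0.0142). It read 11.20, 11.47, 11.04 and 11.71 at E10 and 12.43, 12.27, 12.28 and 11.97 at E10.5, and its second probe set differed by 0.85. The other multiplexin, Col15a1, differed by 0.02.

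The remaining rises came from 3 genes of different structure. Col26a1 read 9.96, 10.97, 11.26 and 11.78 at E10 and 12.07, 12.06, 12.35 and 12.22 at E10.5 (1.18 ± 0.26, adjusted p = 0.0216), and its other probe set, which read 3.56 to 4.06, differed by -0.06. Col6a1 read 12.91, 13.04, 13.27 and 13.15 at E10 and 13.42, 13.46, 13.51 and 13.50 at E10.5, a small rise of 0.38 (adjusted p = 0.0370). Its partners Col6a2 and Col6a3 differed by 0.46 and 0.30 without passing. Col7a1, the chain of anchoring fibrils under epithelia, rose by 0.46 (adjusted p = 0.0431). The transmembrane Col13a1, Col23a1 and Col25a1 differed by 0.52, 0.45 and -0.08 and the short-chain Col8a1 by 0.025; none passed.

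**Figure D2:**
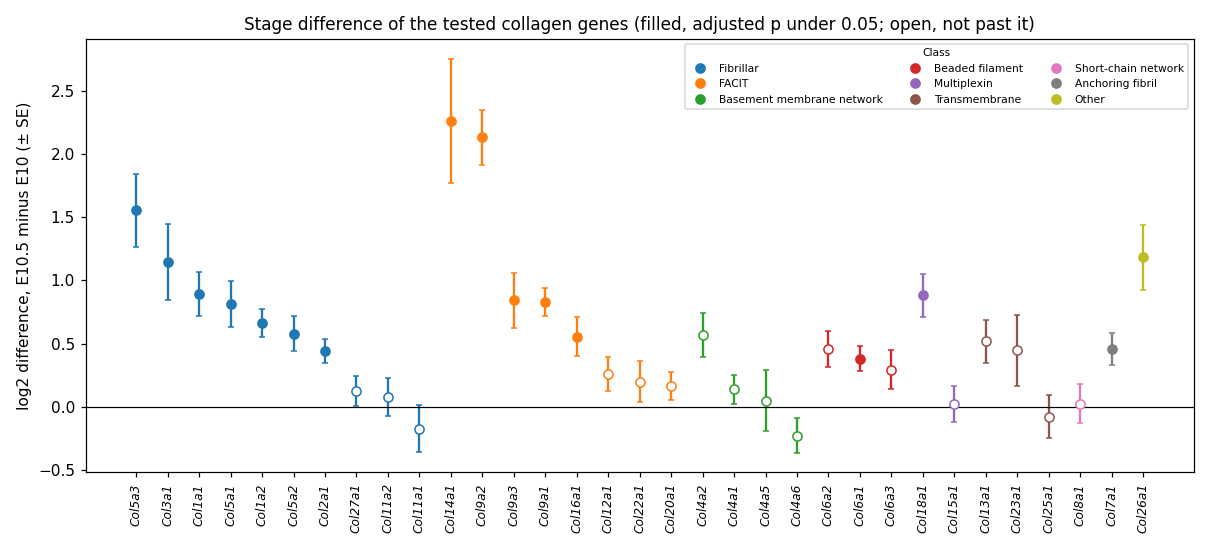
Log2 difference E10.5 minus E10, with its standard error, for the 33 collagen genes tested, coloured by structural class; filled points passed an adjusted p of 0.05. Filled points make up 7 of 10 fibrillar and 5 of 8 FACIT genes and 0 of 4 basement membrane network genes.

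The number of calls depended on single arrays: without wild-type E10.5 replicate 1 or 2 it was 2 and 3, without labelled-null E10.5 replicate 1 or 2 it was 5 and 9, without labelled-null E10 replicate 1 it was 7, and without wild-type E10 replicate 1 it was 10. Col9a1 and Col9a2 kept the call in each of these and in all other settings tried. Among the 23 tested genes with several probe sets, all probe sets moved the same way in 16; the exceptions were Col4a5, Col5a3, Col8a1, Col12a1, Col20a1, Col25a1 and Col26a1.

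Within each label the rise was seen separately, at lower power. In wild-type, 3 of 33 members were called higher (Col5a3, 2.31; Col9a2, 2.30; Col1a1, 1.17), against 1.17% of all genes, and the member median was 0.49. Whether these 3 calls remained depended on which single array was left out, and the calls over all genes moved too. Leaving out either labelled-null E10.5 array changed the calls, though these arrays are no part of the wild-type difference. The member median stayed at 0.49 without either of them. Over the settings tried, Col5a3 differed by 0.895 to 2.49, Col9a2 by 1.93 to 2.66 and Col1a1 by 0.63 to 1.33. Both wild-type E10.5 arrays exceeded both E10 arrays in 24 members (72.7%), against 35.3% of all genes. In the labelled-null arrays 0 were called, against 0.022% of all genes, and 10 were higher at an unadjusted p under 0.05, against 7.48%. Their median was 0.40, and 21 members (63.6%) were higher at E10.5 without overlap, against 25.7% of all genes. Col9a2 differed by 1.97 (adjusted p = 0.0796), Col9a1 by 0.84 (adjusted p = 0.108) and Col5a3 by 0.81 (adjusted p = 0.141) there.

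Genes that make, bind and degrade collagen were read beside the chains, where 9.28% of all genes were called higher and 6.54% lower. Fibril-associated proteoglycans, which coat fibrils, rose in 4 of 5 genes tested. Lum (lumican) read 5.61, 6.95, 5.59 and 5.78 at E10 and 8.76, 8.75, 7.94 and 7.33 at E10.5 (2.21 ± 0.28, adjusted p = 0.00474). Dcn (decorin) read 5.92, 5.88, 5.53 and 5.42 at E10 and 7.49, 7.34, 7.20 and 6.87 at E10.5 (1.54 ± 0.11, adjusted p = 0.00274). Bgn and Prelp rose by 1.09 and 1.07. Both named genes were clear of overlap, and both were lowest among E10.5 arrays in the labelled-null ones.

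Of 20 biosynthesis and processing genes, 5 rose and 2 fell. For this and the next lists, 9.28% of all genes were called higher and 6.54% lower. The rises were P3h3 (1.57) and P3h4 (0.87), of the prolyl 3-hydroxylase family, Pcolce (1.51), the enhancer of C-propeptide removal, Bmp1 (0.74), the C-propeptidase, and Plod1 (0.74), a lysyl hydroxylase. Plod2 (-0.56), the lysyl hydroxylase of telopeptides, and P3h2 (-0.67) fell. Of 9 turnover genes 4 rose, namely Mmp14 (1.37) and Mmp2 (1.49), a membrane collagenase and the gelatinase it activates, and their inhibitors Timp2 (0.50) and Timp3 (1.04). Loxl1 (1.08), a crosslinking oxidase, was called among 3 genes of its list, and Adgrg1 (0.71), a receptor for type III collagen, among 6. The list medians were 1.09 for proteoglycans, 0.29 for biosynthesis, 0.50 for turnover and -0.13 for receptors, against 0.045 for all genes.

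Markers of other cell types moved between the stages too, beside 9.28% of all genes called higher and 6.54% lower. All 6 blood genes tested rose, their mean level going from 7.92 to 8.96 at E10 to 10.00 to 11.25 at E10.5. Of 6 neuron genes 5 rose and 1 fell, with means of 7.09 to 7.97 and 8.76 to 9.24. Of 6 endothelial genes 2 rose (Pecam1 and Tie1), with means of 5.78 to 6.0 and 6.30 to 6.55. Of 10 mesenchyme genes 0 were called, with a median of 0.12 and means of 6.09 to 6.43 at E10 and 6.22 to 6.34 at E10.5. Of 8 otic epithelium genes 3 rose and 2 fell. Single mesenchyme genes went both ways, 7 higher and 3 lower at E10.5: Pdgfra differed by 0.63, Twist1 by 0.59 (6.19 to 7.42 at E10 and 7.19 to 7.66 at E10.5), Prrx1 by 0.15 (5.36 to 5.83 and 5.21 to 5.93) and Tbx18 by -1.04. The embryonic globin Hba-x read 7.61 to 9.30 and 11.04 to 12.69. Of 3 neural crest and glia genes 1 rose, Sox10, which is also on the otic list. A background on the log2 scale is not 0, so the absence of a marker cannot be read from a low value. The part of the blood, vessel, neuron and mesenchyme lists in the collagen differences was not tested.

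**Figure D3:**
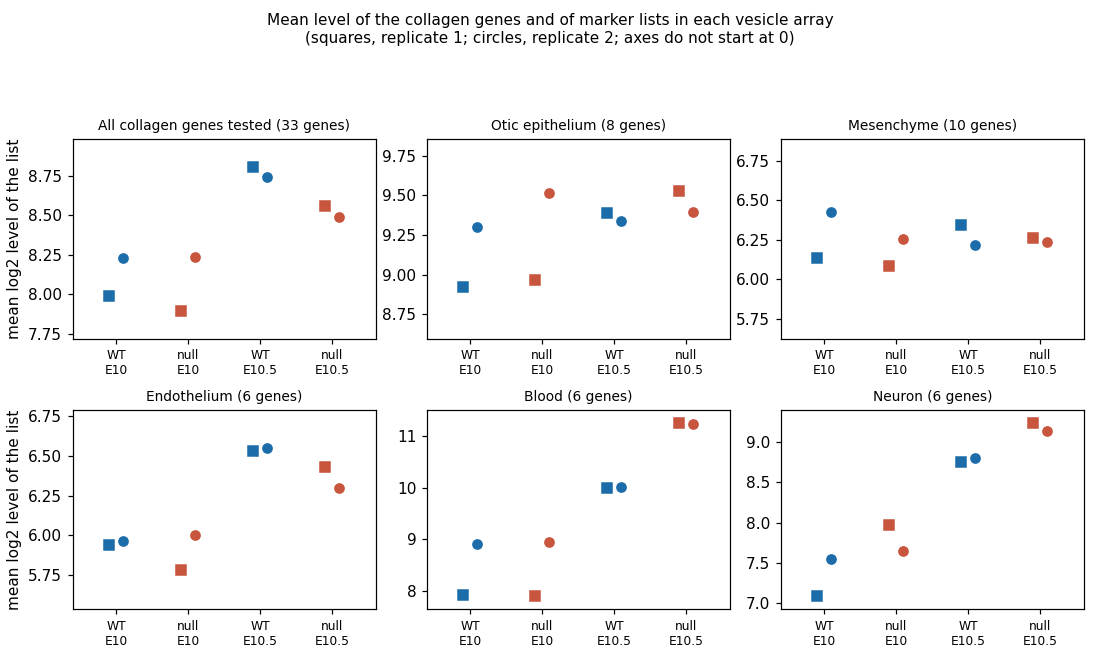
Mean log2 level of the 33 collagen genes and of 5 marker lists in each vesicle array; squares are replicate 1, circles replicate 2, blue wild-type and red labelled-null. Blood, neuron and endothelial means are higher at E10.5, and the mesenchyme means of the stages overlap (6.09 to 6.43 at E10 and 6.22 to 6.34 at E10.5). Replicate 1 of both E10 groups is lowest for the collagen genes (7.99 and 7.90).

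The next comparison asked whether collagen genes differed between labelled-null and wild-type vesicles. Over both stages 0 of 33 members passed the adjusted threshold (limma), as 0.022% of all genes did. At an unadjusted p under 0.05 there were 6 members, against 4.1% of all genes tested. Of these, 5 were lower in labelled-null arrays, namely Col14a1 (-1.51), Col5a3 (-0.99), Col11a1 (-0.62), Col11a2 (-0.42) and Col27a1 (-0.29), and Col26a1 was higher (0.64). The member median was -0.09 and 20 of 33 were lower, against a median of -0.01 and 52.6% lower over all genes. Of the 10 fibrillar genes 9 were lower, with a median of -0.32. The median over all 33 rests on single arrays, and was 0.007 without labelled-null E10 replicate 1. Within both stages Col5a3, Col12a1 and Col27a1 were lower without overlap (9.09% of members and 3.24% of all genes) and Col26a1 and Col6a1 higher (6.06% and 1.97%), though some other probe sets of Col12a1 and Col26a1 ran the other way. Col2a1, Col9a1, Col4a1, Col4a2 and Col18a1 differed by 0.02, -0.065, 0.065, -0.035 and -0.09, each with an adjusted p of 0.999.

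At E10 0 members were called (0% of all genes), and 2 passed an unadjusted 0.05, against 3.31% of all genes; both were higher in labelled-null arrays. Col26a1 read 9.96 and 10.97 for wild-type against 11.26 and 11.78 for labelled-null (1.06 ± 0.33, adjusted p = 1). Col16a1, a FACIT found in skin and smooth muscle, read 7.12 and 7.43 against 7.64 and 7.83 (0.46 ± 0.18). Both groups were apart but wide. Col27a1, a fibrillar chain of cartilage, read 8.55 and 8.23 against 8.11 and 7.92, and Col12a1 read 7.19 and 6.76 against 6.49 and 6.75; these were lower by 0.38 and 0.36. Col6a1 (0.24) and Col5a3 (-0.24) were also without overlap, and the other 27 members overlapped. The members without overlap, 9.09% higher and 9.09% lower, were close to the shares over all genes, 8.52% and 8.93%. With both E10 replicate 1 arrays left out, which stood apart in spread, the member median was 0.02, against -0.015 with all arrays. Without replicate 2 of wild-type or of labelled-null at E10 the median was 0.04 and -0.21, against 0.075 and -0.055 over all genes. The number past the unadjusted 0.05 rose in these fits, as it did over all genes. Col1a2 differed by 0, Col1a1 by -0.09, Col2a1 by 0.04, Col9a1 by -0.07, Col18a1 by 0.04, Col4a1 by 0.17 and Col4a2 by -0.07. Col11a1 and Col3a1 were 0.49 and 0.52 lower, with overlapping arrays. The second Col11a1 probe set read 6.19 and 6.64 against 5.53 and 5.24, a difference of -1.03 without overlap.

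At E10.5 0 members were called, against 0.00733% of all genes, and 4 passed an unadjusted 0.05, against 2.95%, all lower in labelled-null arrays. Col5a3 read 8.43 and 8.25 for wild-type against 6.77 and 6.43 for labelled-null, a difference of -1.74 ± 0.20 (adjusted p = 0.125; 0.0248 to 1 over the settings tried). Col14a1 read 10.74 and 10.63 against 8.51 and 8.24, a difference of -2.31 ± 0.62 (adjusted p = 1; 0.0136 to 1 over the settings), and its second probe set read 7.40 and 7.59 against 6.27 and 6.03. For both genes the labels were apart by several times the gap within a label. Col1a1 read 7.35 and 7.17 against 6.61 and 6.65 (-0.63 ± 0.22), though its second probe set differed by 0.01. Col11a1 read 9.63 and 9.61 against 9.07 and 8.68 (-0.75 ± 0.28), and its second probe set differed by -0.55. The other Col5a3 probe set, low in all arrays, differed by -0.015. Fewer members passed the unadjusted 0.05 without either wild-type E10.5 array, or without labelled-null E10.5 replicate 2. In the last of these fits fewer of all genes passed too.

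Col4a5, a type IV chain, read 7.76 and 7.73 against 7.42 and 6.67 (-0.70 ± 0.36), and its second probe set differed by -0.77. Col11a2, a type XI chain, read 6.96 and 7.16 against 6.40 and 6.69 (-0.52 ± 0.22). Both were lower in labelled-null arrays without overlap, and neither passed an unadjusted 0.05 on the probe set tested. In all, 12 members (36.4%) were lower and 4 (12.1%) higher without overlap, against 28.2% and 16.9% of all genes. The higher ones were Col26a1 (12.07 and 12.06 against 12.35 and 12.22), Col9a2 (11.20 and 11.20 against 11.36 and 11.42), Col6a1 (13.42 and 13.46 against 13.51 and 13.50) and Col15a1. Col2a1 and Col4a2 differed by 0 and Col9a1 by -0.06. Col1a2, Col3a1, Col4a1 and Col18a1 differed by -0.26, -0.20, -0.04 and -0.23. Overall direction depended on the scaling: 23 of 33 members (69.7%) and 58.0% of all genes were lower as deposited, 81.8% and 66.4% after centring each array on its median, and 57.6% and 46.4% after quantile normalization.

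**Figure D4:**
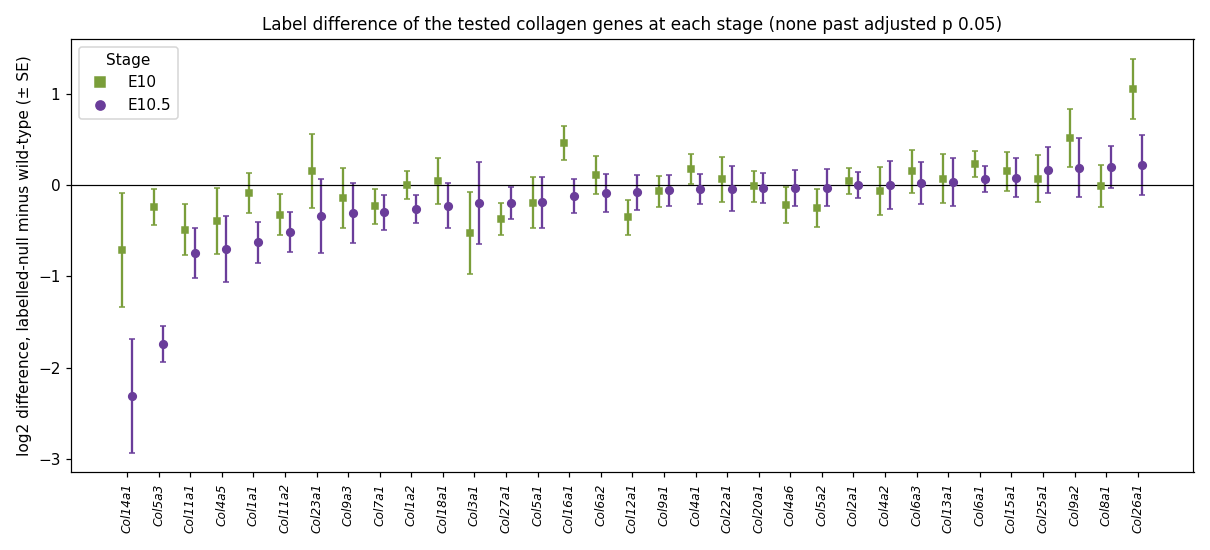
Log2 difference labelled-null minus wild-type, with its standard error, at E10 (squares) and E10.5 (circles) for the 33 collagen genes tested, ordered by the E10.5 value. Col14a1 (-2.31) and Col5a3 (-1.74) lie lowest at E10.5, and no gene passed an adjusted p of 0.05 at either stage.

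The label difference was then compared between the stages by the interaction, E10.5 minus E10. None of 33 members was called (0% of all genes), and 1, Col5a3, passed an unadjusted 0.05, against 1.97% of all genes. Col5a3 was 0.24 lower in labelled-null arrays at E10 and 1.74 lower at E10.5, an interaction of -1.5 ± 0.28 (adjusted p = 1). Col14a1 was lower by 0.71 and 2.31 (-1.60 ± 0.88), and Col16a1 was higher by 0.46 and lower by 0.12 (-0.58 ± 0.26). Col12a1, Col5a2 and Col27a1 had interactions of 0.28, 0.22 and 0.18. Col5a2 read 6.14, 6.24, 5.65 and 6.23 at E10 and 6.65, 6.67, 6.65 and 6.61 at E10.5, with 1 low array, labelled-null E10 replicate 1. With all arrays the member median interaction was -0.13, against -0.04 over all genes. Without wild-type E10 replicate 2 it was -0.2375, against -0.135 over all genes. Without labelled-null E10 replicate 1 it was -0.275, against -0.12. In both of these fits more members passed the unadjusted 0.05, as did more of all genes.

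None of the partner lists had a call between the labels over both stages. Of the biosynthesis genes 16 of 20 were lower in labelled-null arrays over both stages and 19 of 20 at E10.5, with a median of -0.14 there, on arrays where 58.0% of all genes were lower. Lum and Dcn were lower by 0.86 and 0.40 over both stages (adjusted p = 0.949 and 0.732). At E10.5 all 6 endothelial genes were lower in labelled-null arrays (means 6.53 and 6.55 against 6.43 and 6.30), as were 58.0% of all genes. None of the 6 passed an unadjusted p of 0.05 (limma), against 2.95% of all genes. All 6 blood genes were higher (10.00 and 10.02 against 11.25 and 11.22), 4 of them at an unadjusted p under 0.05. Neuron means were 8.76 and 8.80 against 9.24 and 9.14, and mesenchyme means 6.34 and 6.22 against 6.26 and 6.24. The part of these lists in the collagen differences was not tested.

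In 2B1 the comparison asked what forced Dlx5 expression changed in cultured cells. None of 33 members was called (limma; 0% of all genes), and 6 passed an unadjusted 0.05, against 12.9% of all genes. Higher with Dlx5 were Col3a1, Col4a5, Col6a2 and Col4a4; lower were Col1a1 and Col18a1. The member median was 0.045, as over all genes.

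Col3a1 read 8.59 and 8.72 with Dlx5 and 7.56 and 7.63 with empty vector, a difference of 1.06 ± 0.16 (adjusted p = 0.329), and its second probe set read 4.83 and 4.75 against 3.36 and 3.86. The cultures were apart on both probe sets. Col4a5, a type IV chain of epithelial basement membranes, read 7.62 and 7.53 against 6.50 and 6.83 (0.91 ± 0.18, adjusted p = 0.377). Col6a2 read 8.88 and 9.02 against 8.17 and 8.42 (0.66 ± 0.17), and its second probe set differed by 0.46. Col4a4 read 5.50 and 5.62 against 5.04 and 5.0 (0.54 ± 0.16). Its other probe sets, at lower levels, ran the other way on average. They read 4.44 and 4.47 against 4.57 and 4.59, and 4.23 and 4.40 against 4.39 and 4.51. Col1a1, near the top of the scale in these cells, read 13.45 and 13.35 against 13.92 and 13.91 (-0.52 ± 0.16), while its second probe set differed by 0.12. Col1a2, its partner in type I collagen, read 8.32 and 8.27 against 7.79 and 8.06 (0.37 ± 0.17). On the probe sets tested the 2 type I chains thus differed in opposite directions, without either passing the adjusted threshold. The other Col1a2 probe sets (means 6.975 against 6.145 and 4.075 against 3.71) and the second Col1a1 one were all higher with Dlx5 on average. Col18a1 read 7.99 and 7.96 against 8.27 and 8.50 (-0.41 ± 0.17), and its second probe set differed by -0.005. Col12a1 read 8.68 and 8.81 against 8.98 and 9.29 (-0.39 ± 0.18), while another of its probe sets differed by 0.40 the other way.

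**Figure D5:**
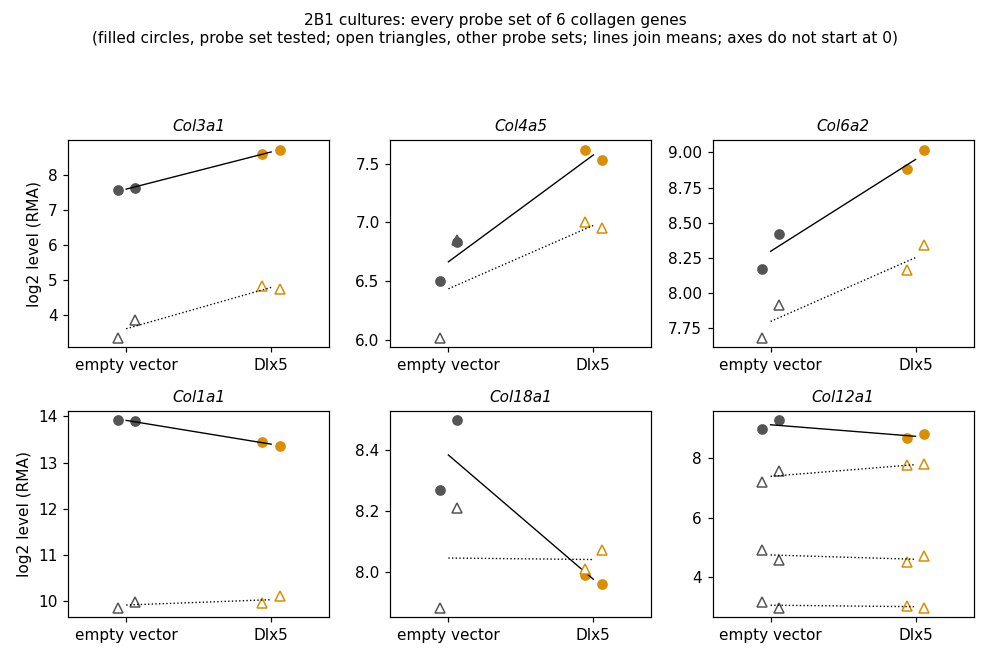
Log2 level of every probe set of 6 collagen genes in the 4 cultures of 2B1; filled circles are the probe set tested, open triangles the others, and lines join group means. Both Col3a1 probe sets rise from empty vector to Dlx5 in the plot (differences 1.06 and 1.18), the second Col18a1 probe set is nearly level (-0.005), and those of Col1a1 and Col12a1 do not all run one way.

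Of the type IV genes 5 of 6 were higher with Dlx5, with a median of 0.33, against 56.3% higher and a median of 0.045 over all genes. Col4a1 read 10.04 and 10.13 against 9.72 and 10.10. Col4a2 read 8.18 and 8.23 against 7.82 and 8.50, and Col4a3 read 6.28 and 6.0 against 5.21 and 6.1. These genes overlapped, and empty vector replicate 1 was the lower control in each. Over the settings tried, Col4a1 differed by -0.015 to 0.365 and Col4a2 by -0.295 to 0.385. The class count and median were not refitted with a culture left out. Col2a1, Col9a1 and Col9a2 differed by -0.17, 0 and -0.05, and Col5a3 by -0.10. Over all members 9 (27.3%) were higher and 7 (21.2%) lower without overlap, close to the 29.6% and 19.1% of all genes. The count at an unadjusted 0.05 moved with single cultures left out, as it did over all genes. Such fits leave 1 culture in a group, so only their medians are given. Without Dlx5 replicate 1 or 2 the member median was 0.12 and 0.02, against 0.045 and 0.055 over all genes. Without empty vector replicate 1 or 2 it was 0.035 and 0.09, against -0.01 and 0.13. Proteoglycans of the fibril surface were higher in 4 of 5 genes at an unadjusted 0.05, against 1325 of 13647 genes in all. They were Dcn by 1.15, Ogn by 1.12, Prelp by 0.91 and Fmod by 0.78, each with adjusted p = 0.377 (limma). Empty vector replicate 1 was lower than the other 3 cultures in Dcn (5.87 against 6.64 to 7.48), in Ogn (6.30 against 7.03 to 7.79) and in the mesenchyme mean (6.73 against 7.12 to 7.22). The part of that culture in the proteoglycan differences was not tested. On the probe sets tested, both empty vector cultures were alike for Col3a1 and Col1a1 (7.56 and 7.63, and 13.92 and 13.91). On the second Col3a1 probe set they read 3.36 and 3.86. Replicate 1 was also the lower for Col4a5 (6.50 and 6.83) and Col6a2 (8.17 and 8.42), but not for Col4a4 (5.04 and 5.0). The part of that culture in the collagen differences was not tested either.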

How the data were processed

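RNA of 8 vesicle pools and 4 cultures of 2B1 was measured on Affymetrix arrays. The deposited values are log2 probe set levels; RMA and Affymetrix Expression Console are named in the submitters' processing notes, with no versions. RMA is known to compress low values. No detection calls, scan dates or genome build were given in the sources used here. Groups and replicate numbers came from the sample titles; all 12 sample columns were matched and 0 were left unmapped. Probe sets were named through the platform annotation, with symbols updated by gene identifier for 34754 of them. Where a gene had several probe sets, the one brightest on average in the vesicles, or in 2B1, stood for it there, and the 25% of genes with the lowest means were left out.

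Vesicles and 2B1 were fitted apart with limma 3.58.1 in R 4.3.3 (lmFit, eBayes), with Benjamini-Hochberg adjustment over all genes and a threshold of 0.05. The additive fit of stage and label had 5 residual degrees of freedom, the fit of group means 4, and the 2B1 fit 2. Simulated data served only to check the fitting steps, and no support for the calls is drawn from them. Stage differences within a label and label differences within a stage share arrays. Each p-value sets a difference against the residual spread of all arrays in the fit, moderated across genes by eBayes. Groups held only 2 pools or cultures, and an exact permutation test of 2 against 2 arrays could not reach 0.05. Differences are on the log2 scale, and levels of different probe sets were not compared.

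The members and the gene lists were chosen with earlier results of these data known, so lists are described by counts and medians only. Values in every array were given for members past the threshold, where fewer than 3 passed for the 3 per direction with the smallest p among those without overlap (for the interaction, whatever the overlap), and for Col1a1, Col1a2, Col2a1, Col3a1, Col4a1, Col4a2, Col9a1, Col11a1 and Col18a1. Alternatives covered the choice of probe set, the filter, the scaling, the variance prior, the replicate number as a block, and each array left out.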

Additional observations from a re-analysis of the deposited data

How the results depend on the processing

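The direction of the stage difference held for all 16 called members in every setting. The count of 16 ranged from 11 (median centring) to 17 (quantile normalization) and from 2 to 19 with 1 array left out; over all genes the 2158 calls became 1324 with median centring, 3361 with quantile normalization and 470 to 3800 with 1 array left out. Col9a1 and Col9a2 kept the call throughout, and 10 of the 16 kept it in all settings other than those leaving out 1 array. The 3 calls in wild-type became 11 without both E10 replicate 1 arrays, 9 with an intensity trend in the variance, 9 with the trend and a robust prior, 1 with median centring, 9 with quantile normalization, and 0 to 9 with 1 array left out; over all genes 296 calls ranged from 0 to 1689. The 0 calls in labelled-null became 1 without both E10 replicate 1 arrays, 3 with the trend, 3 with the trend and robust prior, and 2 with quantile normalization; over all genes 3 calls ranged up to 289. For the labels, the 2 members at an unadjusted 0.05 at E10 (451 of all genes) became 1 with median centring (285) and 4 with quantile normalization (790). The 1 for the interaction (269 of all genes) became 0 with the lowest 50% left out (185 of 9098). It became 3 with the mean of probe sets (282 genes), 2 with probe sets singly (541 of 26218 probe sets) and 2 with quantile normalization (443 genes). At E10.5 the 4 (403 of all genes) became 2 with the lowest 50% of genes left out (296 of 9098). Without both E10 replicate 1 arrays these label counts rose, as did those over all genes. They also moved in fits with 1 array left out. In 2B1, 0 calls became 1 with the trend (Col1a1) and 2 with the trend and robust prior (Col1a1 and Col3a1), where 25 and 47 genes were called in all. The 6 at an unadjusted 0.05 (1760 of all genes) became 4 with the mean of probe sets (1583) and 9 with quantile normalization (2460). The median of 0.045 was 0.145 with the lowest 50% left out, -0.0525 with no filter, and 0.02 to 0.12 with 1 culture left out. The cause of these shifts was not tested.

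The replicate numbers were not taken to pair the samples. Deviations of same-numbered samples went together between labels at E10 (correlation 0.71), where both replicate 1 arrays had the lower spread, but not at E10.5 (0.067), between stages (-0.096 and -0.374) or in 2B1 (-0.128). With the replicate number as a block, the stage count was 14, the 6 members at an unadjusted 0.05 over both stages became 11 (560 and 1431 of all genes), the 2 at E10 became 8, 3 higher and 5 lower (451 and 1641), the 4 at E10.5 became 7 with 2 called, Col5a3 and Col14a1 (403 and 1315), the 1 for the interaction became 5 (269 and 1392), and 2 were called in 2B1 (Col3a1 and Col4a5) among 258 genes. With crossed numbers as a block, chosen after seeing the data as was quantile normalization, 1 member was called in 2B1 among 20 genes and 1 in labelled-null between the stages among 81. For single members set against their value in other settings, 1690 comparisons kept direction and side of the threshold, 101 lost a call, 48 gained one, 87 changed the sign of a value that was not called, and none reversed a call. Groups of 2 arrays limit the precision of every value.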

Other observations

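Several probe sets outside the vesicle tests read higher in 2B1. On 1 probe set Col4a3, a chain of the mature kidney and cochlear basement membrane, read 3.28 to 3.88 in the vesicles. In the 2B1 cultures it read 6.28, 6.0, 5.21 and 6.1. The other Col4a3 probe set read 4.21 to 5.10 and 4.65 to 5.68, and the 2 sources overlapped. Col8a1 was read by 3 probe sets, and the lowest in vesicles lay at 2.30 to 2.99 in vesicles and 6.58 to 7.25 in 2B1. A second Col12a1 probe set read 3.36 to 3.97 and 7.20 to 7.80. In the vesicles Col25a1, a brain transmembrane collagen, had a second probe set at 4.88, 5.62, 4.93 and 6.62 at E10 and 7.04, 6.66, 6.55 and 6.29 at E10.5, while the tested one stayed at 6.51 to 7.12. Col17a1, of hemidesmosomes, Col24a1 and Col6a5 did not exceed 3.56 in any of the 12 arrays. The vesicle and 2B1 arrays were normalized apart, so these values were set side by side without a test.

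Probe sets of 1 gene often ran in different directions where differences were small. Of the 23 vesicle genes with several probe sets, all moved the same way in 12 for the label difference over both stages, in 13 at E10.5 and in 8 for the interaction, and of 24 genes in 2B1 in 14.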
